A study of Mus musculus with 2 samples.

Results

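CC chemokines are small secreted proteins, named for a pair of adjacent cysteines near the start of the mature chain, that guide leukocytes by binding seven-helix receptors on their surface. Macrophages that sense bacterial lipopolysaccharide through Toll-like receptor 4 make several of them, and NF-kB drives many of the genes. Some, such as Ccl3 and Ccl4, are known as early response genes, while Ccl5 is known as a later one. The 9 genes described here, Ccl2, Ccl3, Ccl4, Ccl5, Ccl6, Ccl7, Ccl9, Ccl12 and Ccl22, were taken by gene symbol out of 55536 annotated genes, 22015 of them protein-coding and not mitochondrial. The rule uses gene symbols and no threshold on a measured value, but the genes were proposed with earlier results of these data known. All 9 have a row in each table of both libraries.

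Both libraries belong to 1 group. They hold nucleoplasmic RNA of bone marrow-derived macrophages of C57BL/6J mice, a primary cell grown from marrow. The cells were given Lipid A, the part of lipopolysaccharide that the receptor binds, at 100 ng/ml for 12 h, kept without it for a further 12 h, and given 100 ng/ml Lipid A again for 30 min. RNA was depleted of ribosomal RNA, and the libraries were begun from 1 µg (replicate 1) or 500 ng (replicate 2) of RNA. Untreated cells, cells given Lipid A once and other fractions were not analysed here, so no value below is a response to Lipid A. Age and sex of the mice were not recorded in the labels. Both replicates carry the same donor identifier, so the spread between them may be technical in part.

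The defining feature of the family can be read in the coding sequences of the GENCODE M21 transcripts, with positions on mm10, where capitals mark the codons of the adjacent cysteines and the lower-case bases are the 24 coding bases on either side. The stretches are shown because they are what the 9 genes have in common and also where they visibly differ. All but that of Ccl22 are spliced across an exon junction, so their genome spans are wider than the 54 bases shown.
Ccl2, chr11:82035737-82036535, + strand: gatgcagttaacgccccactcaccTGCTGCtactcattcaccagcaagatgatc
Ccl7, chr11:82045856-82046567, + strand: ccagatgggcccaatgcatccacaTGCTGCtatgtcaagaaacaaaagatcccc
Ccl12, chr11:82101972-82102663, + strand: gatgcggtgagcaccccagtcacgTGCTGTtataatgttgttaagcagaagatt
Ccl3, chr11:83648628-83649202, - strand: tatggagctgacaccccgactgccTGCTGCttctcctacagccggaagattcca
Ccl4, chr11:83662738-83663511, + strand: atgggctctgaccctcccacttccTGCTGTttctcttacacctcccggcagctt
Ccl5, chr11:83529218-83530389, - strand: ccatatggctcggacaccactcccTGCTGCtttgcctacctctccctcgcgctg
Ccl6, chr11:83589362-83589757, - strand: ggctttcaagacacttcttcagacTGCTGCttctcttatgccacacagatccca
Ccl9, chr11:83575902-83576378, - strand: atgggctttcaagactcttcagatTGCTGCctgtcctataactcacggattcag
Ccl22, chr8:94746910-94746963, + strand: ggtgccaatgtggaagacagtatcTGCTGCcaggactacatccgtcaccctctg

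Each coding sequence held exactly 1 such adjacent pair. Its first codon was number 33 to 36 in 7 genes, but number 50 in Ccl6 and 57 in Ccl9, the rodent chemokines known for a longer amino-terminal part. Over whole coding sequences, the closest pair was Ccl3 and Ccl4 with 70.1% identical bases, followed by Ccl6 and Ccl9 with 66.7% and Ccl7 and Ccl12 with 63.9%. The median over all 36 pairs was 52.7%. No stretch of 31 bases was shared between transcripts of any 2 of the 9 genes, so exact matches of that length do not mix their reads. Ccl9 shared 3.98% of its 31-base stretches with transcripts of other genes, Ccl6 1.02%, Ccl5 0.539% and the other 6 genes 0%.

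The genes sit in 2 groups on chromosome 11 and a lone site on chromosome 8. Ccl2 (ENSMUSG00000035385.5, chr11:82035571-82037453), Ccl7 (ENSMUSG00000035373.2, chr11:82045712-82047525) and Ccl12 (ENSMUSG00000035352.3, chr11:82101845-82103400) lie on the + strand. Further along are Ccl5 (ENSMUSG00000035042.2, chr11:83525778-83530518), Ccl9 (ENSMUSG00000019122.8, chr11:83572919-83578636), Ccl6 (ENSMUSG00000018927.3, chr11:83587882-83593087) and Ccl3 (ENSMUSG00000000982.5, chr11:83647844-83649355) on the - strand, and Ccl4 (ENSMUSG00000018930.3, chr11:83662584-83664683) on the + strand. Ccl22 (ENSMUSG00000031779.3) is at chr8:94745590-94751699 on the + strand.

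Gene counts came to 23845991 in replicate 1 and 20675294 in replicate 2, and mitochondrial genes took 2.91% and 6.91% of them. The 9 chemokines held 36891 counts in replicate 1, or 0.155% (95% Wilson interval 0.153 to 0.156), and 30171 counts in replicate 2, or 0.146% (0.144 to 0.148). Levels and counts are those of the gene tables made from alignments (alignment-based); a further transcript table, estimated from the read files, is called read-based. The labelled cell type was checked against marker genes. Each of the 6 macrophage markers reached 1 TPM (a level per transcript length, scaled to a fixed total per library) in either library, with summed levels of 1868 and 3214 TPM in replicates 1 and 2. None of the 6 dendritic cell markers (1.53 and 2.45 TPM summed, Cd209a at 0), 6 T and NK cell markers (0.06 and 0.08 TPM, 4 at 0), 6 neutrophil markers (0.61 and 1.29 TPM, 3 at 0, Ly6g and Elane among them) or 4 mast cell and basophil markers (0.42 and 0.54 TPM, Mcpt8 at 0) reached 1 TPM in both by the alignment-based tables. In the read-based table the T cell marker Cd3d did, at 1.21 and 3.99 TPM, against 0.02 and 0.03 TPM in the alignment-based tables, and no other marker of these 4 lists. In replicate 2 alone, the alignment-based tables had the dendritic cell marker Ccr7 at 1.45 TPM and the neutrophil marker S100a8 at 1.16 TPM.

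The monocyte attractants Ccl2, Ccl7 and Ccl12, ligands of the receptor Ccr2, were all well represented. In bulk RNA, fewer cells that make a transcript and less of it per cell cannot be told apart, here and in all levels below. Ccl7, which also binds Ccr1 and Ccr3, was at 235 TPM in replicate 1 and 243 TPM in replicate 2, a mean of 239 ± 5.34 TPM (SD, n = 2). Ccl2, the main attractant of inflammatory monocytes, was at 167 and 132 TPM, a mean of 149.8 ± 24.6 TPM. Ccl12, a mouse relative of Ccl2, was at 52.25 and 36.0 TPM, a mean of 44.1 ± 11.5 TPM. The order Ccl7, Ccl2, Ccl12 was the same in both libraries, with no overlap between their values. Expected counts (read counts estimated per gene) were 5213 and 3931 for Ccl7, 4313 and 2511 for Ccl2 and 617 and 316 for Ccl12.

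Ccl3, Ccl4 and Ccl5 attract T cells and monocytes, and Ccl3 and Ccl5 bind Ccr1. Ccl5 had the highest level of the 9 genes, at 705 TPM in replicate 1 and 775 TPM in replicate 2, a mean of 739.9 ± 49.2 TPM (SD, n = 2). It held rank 16 among the protein-coding genes by mean TPM, and 39.2% and 40.7% of the summed TPM of the 9 genes. Ccl3 was at 244 and 382 TPM, a mean of 313 ± 97.7 TPM and rank 53. Ccl4 was at 318 and 221 TPM, a mean of 269.5 ± 68.4 TPM and rank 70. The values of Ccl3 and Ccl4 overlapped, Ccl4 being the higher in replicate 1 and Ccl3 the higher in replicate 2. Counts were 9301 and 7281 for Ccl5, 5069 and 5809 for Ccl3, and 5298 and 2711 for Ccl4.

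Ccl6 and Ccl9, rodent ligands of Ccr1 made by myeloid cells, were lower. Ccl9 was at 62.7 TPM in replicate 1 and 91.2 TPM in replicate 2, a mean of 77.0 ± 20.1 TPM (SD, n = 2). Ccl6 was at 14.4 and 21.4 TPM, a mean of 17.9 ± 4.99 TPM. Both were higher in replicate 2, and the Ccl9 level was 4.37 and 4.26 times that of Ccl6 in replicates 1 and 2. The coding transcript of Ccl9 is the longest of the 9 (3006 spliced bases). Its counts of 6587 and 7028 were above those of Ccl3 (5069 and 5809), although its level per length was far below that of Ccl3.

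Ccl22, a ligand of Ccr4 that attracts T helper and regulatory T cells, was the lowest of the 9. Its level was 0.56 TPM in replicate 1 and 2.34 TPM in replicate 2, a mean of 1.45 ± 1.26 TPM (SD, n = 2), from 43 and 130 counts. The 8 others had levels of 14.4 TPM or above throughout, and the Ccl6 mean was 12.3 times that of Ccl22, with 25.6 times in replicate 1 and 9.15 times in replicate 2. The Ccl22 mean was above those of 59.4% of protein-coding genes, against 89.7% for Ccl6 and 96.3% to 99.9% for the other 7.

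**Figure D1:**
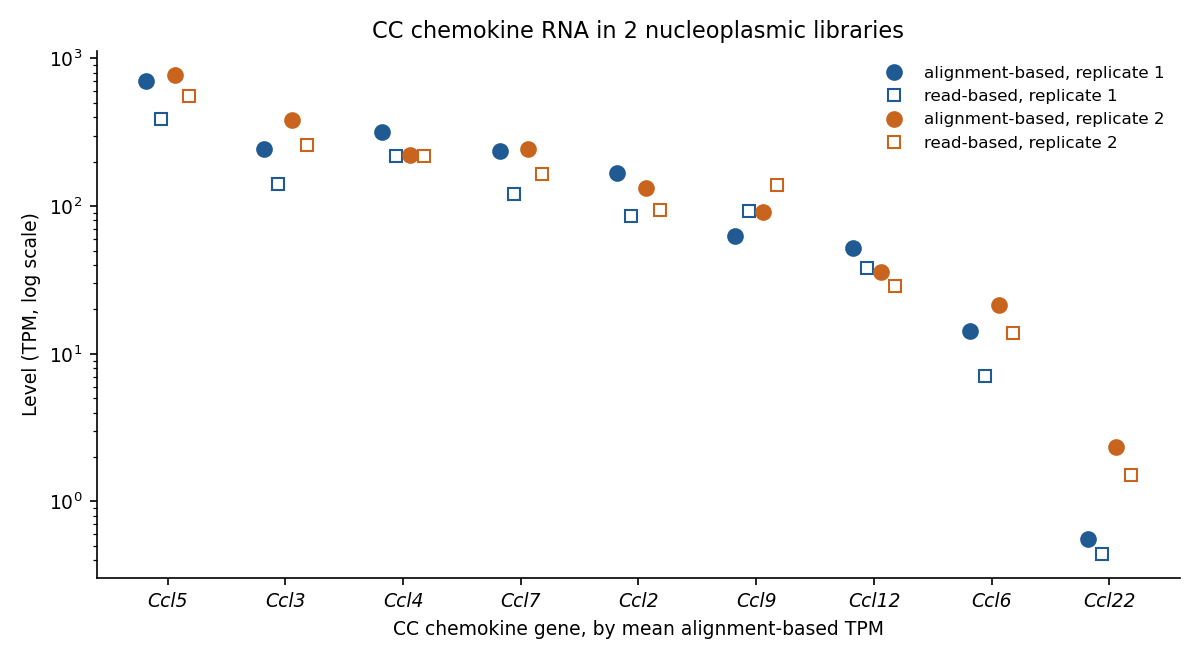
Level of each CC chemokine gene in TPM (log axis) in replicate 1 (blue) and replicate 2 (orange), from the alignment-based gene table (filled circles) and the read-based transcript table summed to genes (open squares). The genes run from Ccl5, at 705 and 775 TPM, to Ccl22, at 0.56 and 2.34 TPM, and only Ccl9 has higher read-based than alignment-based values in both replicates.

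By mean level the order was Ccl5, Ccl3, Ccl4, Ccl7, Ccl2, Ccl9, Ccl12, Ccl6 and Ccl22. Of the 8 pairs of neighbours in this order, Ccl3 with Ccl4 and Ccl4 with Ccl7 overlapped in their values, and the other 6 pairs did not. In each library 5 of the 9 genes were at 100 TPM or more, namely Ccl2, Ccl3, Ccl4, Ccl5 and Ccl7, where 1.28% and 1.49% of protein-coding genes were. The median level of the 9 was 167 TPM in replicate 1 and 132 TPM in replicate 2, and that of all protein-coding genes was 0.27 and 0.33 TPM. The read-based table gave lower levels for 8 of the 9 genes on average and another order in places. Lower levels were not particular to the chemokines, as each of the 6 macrophage markers was also lower there in both libraries. The share of all genes that were lower was not computed. In the read-based table Ccl4 (218 TPM in both replicates) stood above Ccl3 (141 and 258 TPM) by mean, and Ccl9 (93.02 and 138 TPM) stood above Ccl2 (85.1 and 94.2 TPM). Its estimated counts were higher for all 9 genes, by 1.29 to 2.01 times in replicate 1 and 1.35 to 2.28 times in replicate 2, against protein-coding medians of 1.32 and 1.53 times. Of 8637 protein-coding genes whose counts averaged at least 100, 99.5% and 99.7% were also higher there.

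The clusters were not uniform along the chromosome. Between Ccl7 and Ccl12 lies Ccl11, which attracts eosinophils and was at 0.09 and 0.04 TPM in replicates 1 and 2 (3 and 1 counts), while Ccl7 and Ccl12 had at least 316 counts in either library. Beyond Ccl12, Ccl8, another monocyte attractant, was at 18.2 and 9.23 TPM. Next to Ccl5 lies Heatr9, at 4.10 and 1.96 TPM. Ccl3 and Ccl4 have Rpl9-ps1 (0.30 and 0.60 TPM) and the pseudogene Gm11433 (0 in both libraries) as their outer neighbours. The lincRNA Gm31522 on the outer side of Ccl2 was at 0.24 and 0.20 TPM, and Gm22846 and Gnb1-ps3 beside Ccl22 were at 0. Of all the annotated genes in the windows shown, those at 10 TPM or more in both libraries of the alignment-based table were the 8 chemokines. Ccl8 missed that level only narrowly, by its 9.23 TPM in replicate 2. In the read-based table Ccl6 did not reach it in replicate 1 (7.13 TPM).

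**Figure D2:**
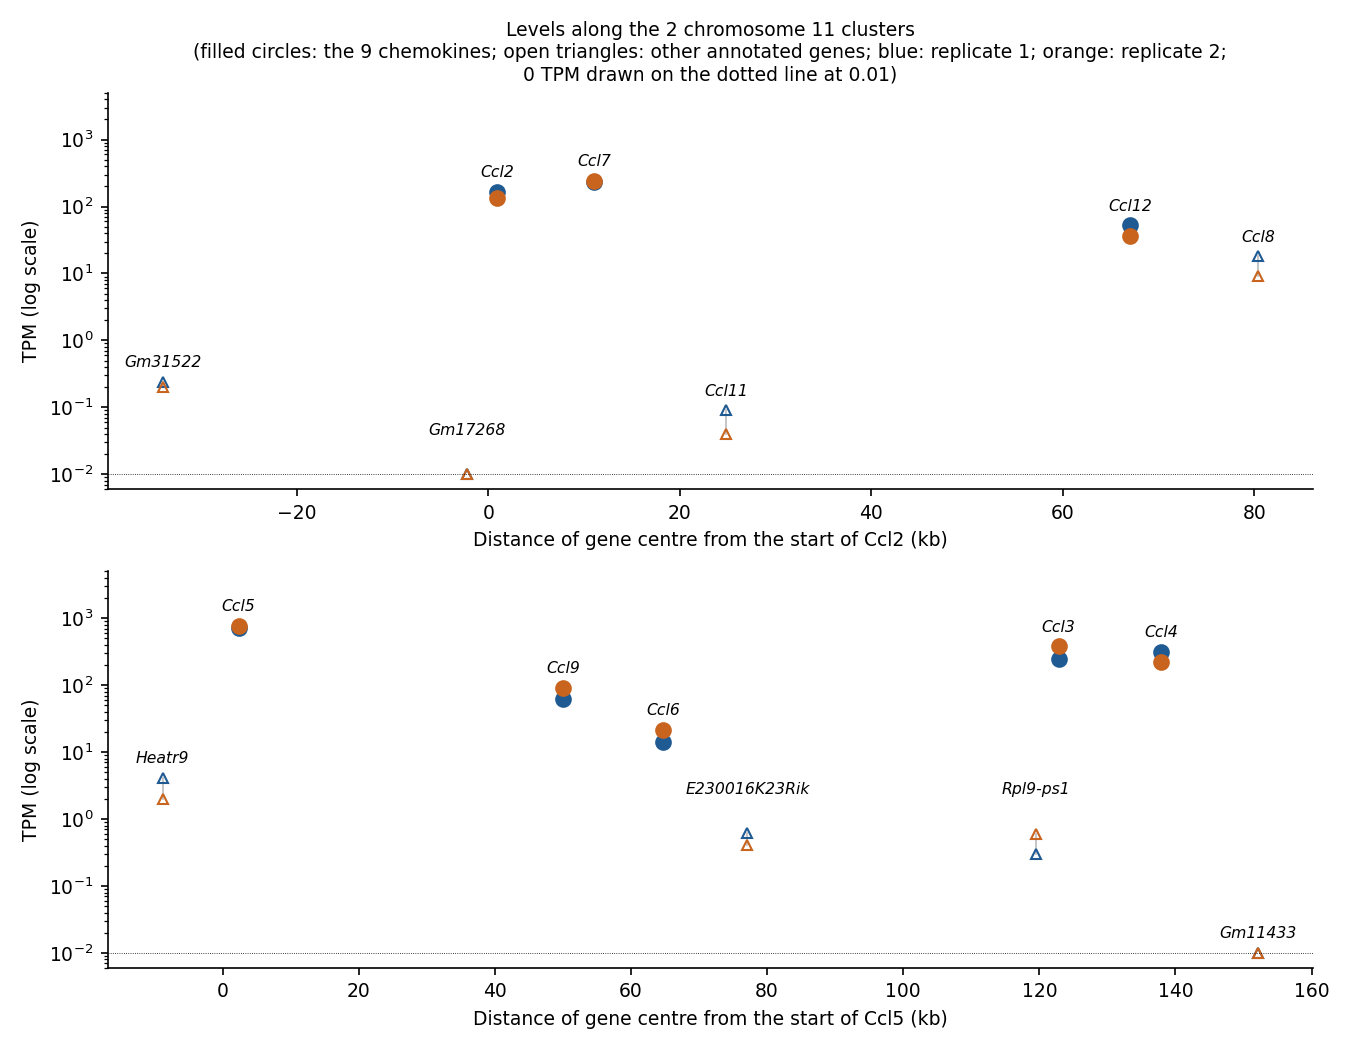
Level in TPM (log axis) of each annotated gene in the chromosome 11 clusters against its distance in kb from the start of Ccl2 (top) or Ccl5 (bottom), with replicate 1 in blue and replicate 2 in orange. Filled circles are the chemokines described here and open triangles the other genes; Ccl11, at 0.09 and 0.04 TPM, lies between Ccl7 and Ccl12.

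Annotated genes on the opposite strand overlap Ccl2 and Ccl6. Gm17268, which spans Ccl2, held 0 counts in both libraries in the alignment-based table and 6 and 8 in the read-based table, beside 6247 and 4000 for Ccl2. E230016K23Rik, a noncoding transcript that spans Ccl6, held 17 and 8 counts, beside 450 and 454 for Ccl6, and 74.2 and 93.2 against 582 and 650.0 in the read-based table. No source used here says whether counting used the strand, so reads of these pairs may not be told apart.

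Between the libraries, 4 of the 9 genes were higher in replicate 2 and 5 were lower by scaled counts, of which Ccl5 and Ccl7 were higher by TPM. With counts scaled by TMM (a factor that aligns the bulk of genes), the log2 ratio of replicate 2 over replicate 1 was 0.39 for Ccl3 (95% counting interval 0.34 to 0.45) and -0.77 for Ccl4 (-0.84 to -0.70). These adjacent genes thus differed in opposite directions, and the TPM of Ccl3 was 0.767 times that of Ccl4 in replicate 1 and 1.73 times in replicate 2. In the read-based table the ratio was 0.06 for Ccl3 (0.02 to 0.10) and -0.78 for Ccl4 (-0.83 to -0.74), so Ccl3 was nearly level there. By the alignment-based counts the ratio was -0.16 for Ccl5 (-0.20 to -0.11), 0.29 for Ccl9 (0.24 to 0.34) and 0.21 for Ccl6 (0.02 to 0.40). Along the other cluster, Ccl2 had -0.58 (-0.65 to -0.51), Ccl7 -0.21 (-0.27 to -0.15) and Ccl12 -0.77 (-0.97 to -0.57), and their neighbour Ccl8 had -1.20, from 198 and 75 counts.

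None of the 8 chemokines with a mean count of 100 or more lay beyond 2-fold between the libraries, where 3.49% of 9675 such genes did. Ccl22, with a mean count of 86.5, had a log2 ratio of 1.78 (1.29 to 2.33). With no count filter it was the 1 gene of 9 beyond 2-fold, where 27.9% of 22750 genes were. In the read-based table Ccl12 (-1.11) and Ccl22 (1.30) were beyond 2-fold, 2 of 9 genes against 5.05% of 13969. The median ratio was -0.16 over the 9 and 0.02 over all 9675 genes, the middle 50% of which lay between -0.25 and 0.27. Intervals cover counting error only, and with 1 library on either side these ratios have no test. The libraries also differ in starting RNA and in their mitochondrial share (2.91% and 6.91% of counts in replicates 1 and 2), whose part in the ratios was not tested. TPM ratios sat 0.27 higher on the log2 scale for the median protein-coding gene, and on that scale Ccl5 (0.14) and Ccl7 (0.05) were above 0, though below the median gene.

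**Figure D3:**
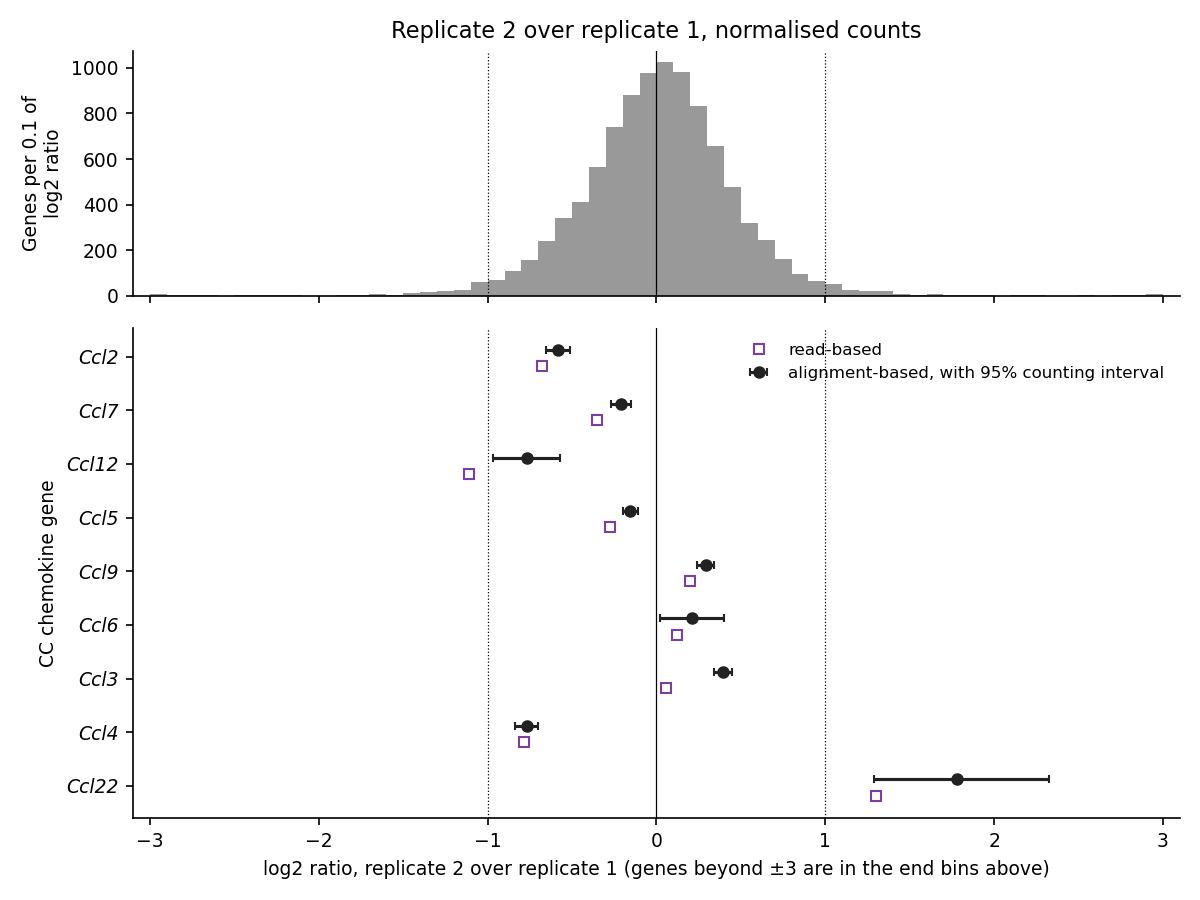
Log2 ratio of replicate 2 over replicate 1. Top, number of genes per bin of 0.1 among the 9675 with a mean count of 100 or more; bottom, each chemokine, with filled circles and 95% counting intervals for the alignment-based counts and open squares for the read-based counts. Dotted lines mark 2-fold, and Ccl22 at 1.78 lies beyond them. By alignment-based counts Ccl3 (0.39) and Ccl4 (-0.77) lie on opposite sides of 0, while the read-based value of Ccl3 (0.06) lies close to 0.

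Nuclear RNA holds unspliced and partly spliced transcripts, and the annotation names some of these as separate transcripts. Ccl3, Ccl4 and Ccl7 have 1 annotated transcript each, so they give no such view. Ccl2, Ccl5 and Ccl6 have transcripts of the class retained_intron. The junctions where these run from exon into intron, or from intron into exon, are printed because they are the bases that set such transcripts apart from the coding one. Capitals are exon and lower case is intron.
Ccl2 retained_intron, exon to intron 2, chr11:82036571-82036630, + strand: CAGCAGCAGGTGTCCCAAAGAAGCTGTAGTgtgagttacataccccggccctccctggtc
Ccl2 retained_intron, intron 2 to exon, chr11:82036896-82036955, + strand: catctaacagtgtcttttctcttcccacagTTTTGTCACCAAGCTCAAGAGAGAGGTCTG
Ccl5 retained_intron, exon to intron 2, chr11:83529126-83529185, - strand: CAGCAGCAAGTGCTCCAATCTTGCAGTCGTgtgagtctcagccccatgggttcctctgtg
Ccl6 longer retained_intron, intron 1 to exon, chr11:83589775-83589834, - strand: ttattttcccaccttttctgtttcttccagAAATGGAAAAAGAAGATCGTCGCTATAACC
Ccl6 shorter retained_intron, exon to intron 2, chr11:83589727-83589786, - strand: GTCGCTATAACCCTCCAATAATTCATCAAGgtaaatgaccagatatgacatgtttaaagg

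The Ccl2 transcript of this class keeps all 325 bases of intron 2. That of Ccl5 stops after 428 of the 3091 bases of intron 2. Ccl6 has a shorter one of 442 bases, which holds 284 of the 342 bases of intron 2, and a longer one of 776 bases, which starts within the last 71 of the 3061 bases of intron 1. In the alignment-based tables the Ccl2 retained_intron transcript was at 48.5 TPM in replicate 1 and 41.4 TPM in replicate 2, or 29.0% and 31.2% of the gene's TPM. The read-based shares were 26.5% and 29.1%, so the estimate for Ccl2 was much the same in each table and library. The Ccl5 retained_intron transcript was at 199 and 142 TPM, or 28.2% and 18.3%, with read-based shares of 33.6% and 24.1%. Its share was higher in replicate 1 in each table, but so was the median share over all genes with such transcripts, given below.

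For Ccl6 the retained_intron transcripts together made up 51.5% of TPM in replicate 1 and 61.5% in replicate 2, and 63.9% and 62.7% in the read-based table. Among 2728 protein-coding genes at a mean of 10 TPM or more that have such transcripts, the median share was 27.3% and 22% in the alignment-based tables. In the read-based table the median was 32.01% in replicate 1 and 26.9% in replicate 2. By the alignment-based tables Ccl6 stood above 86.0% and 93.7% of these genes, while Ccl2 and Ccl5 stood above 42.9% to 65.0%. Ccl5 was near the middle of these genes, above 51.9% in replicate 1 and 42.9% in replicate 2. The Ccl6 shares rest on 450 and 454 counts for the whole gene. By counts and not TPM, the coding transcript (1440 bases, against 776 and 442 for the others) held the larger part of Ccl6. Its share of counts was 72.6% in replicate 1 and 61.7% in replicate 2, and 60.0% and 59.2% in the read-based table. All of these are estimates by transcript and not counts of reads over the junctions.

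Of the 6 genes with more than 1 transcript, Ccl9 had the largest difference in shares between the tables. A short noncoding transcript of Ccl9 has 398 bases, of which the first 39 lie outside the exons of the coding transcript. They are the only bases that its coding transcript lacks and are shown in capitals.
Ccl9 short transcript, first 39 bases at chr11:83577104-83577142, - strand: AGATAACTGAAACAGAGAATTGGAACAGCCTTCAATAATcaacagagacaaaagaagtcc

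The short Ccl9 transcript held 2.74% of the gene's TPM in replicate 1 and 0.49% in replicate 2 in the alignment-based tables (11.3 and 2.25 counts). In the read-based table it held 74.6% and 60.3% of TPM, from 1344 and 1076 estimated counts, or 15.4% and 10.4% of the gene's counts. A share of counts turns into a larger share of TPM in a short transcript. The leading transcript of Ccl9 was therefore the coding one in the alignment-based table and the short one in the read-based table, in both libraries. Ccl6 also changed its leading transcript between tables in replicate 1, with the coding one ahead (48.5%) in the alignment-based table and the longer retained_intron one (47.4%) in the read-based table. Among 3666 protein-coding genes at a mean of 10 TPM or more with more than 1 transcript, the leading transcript differed in 29.3% in replicate 1 and 21.03% in replicate 2. A noncoding transcript of Ccl12, with no base outside the coding one, held 4.11% and 4.64% of TPM in the alignment-based tables and 22.3% and 15.1% in the read-based table. For the noncoding transcript of Ccl22 the alignment-based value was 0 in both libraries and the read-based table had 3 and 1.17 counts.

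**Figure D4:**
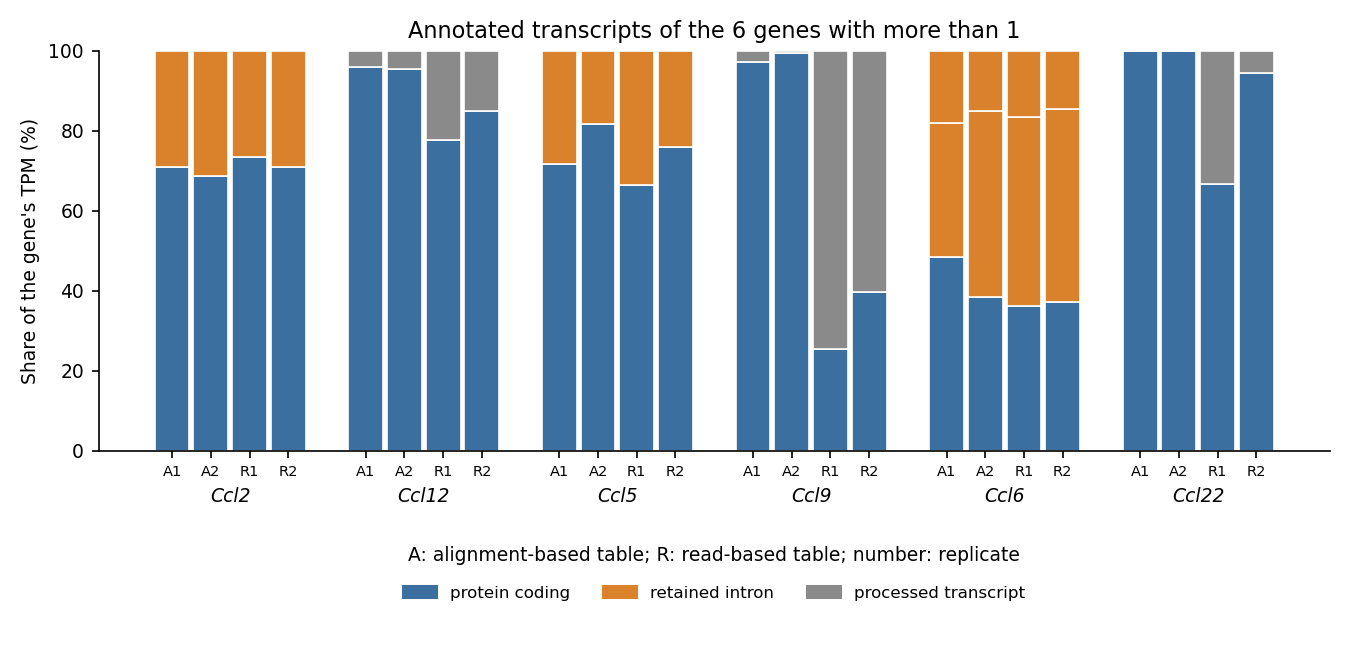
Share of each gene's TPM (percent) held by its annotated transcripts, for the 6 chemokine genes with more than 1, in the alignment-based (A) and read-based (R) tables of replicates 1 and 2. Blue is protein coding, orange retained intron and grey processed transcript; Ccl6 is more than 50% orange in every bar, and Ccl9 turns from 2.74% and 0.49% grey to 74.6% and 60.3% between the tables.

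The genes are short. The coding transcripts of 7 have 3 exons and those of Ccl6 and Ccl9 have 4, against a median of 7 over 21853 protein-coding genes, and their median spliced length was 801 bases against 2542. AU-rich elements, of which the pentamer ATTTA in the 3′ UTR is the core, are known to mark cytokine mRNAs for rapid decay. Ccl12 had 5 in a 3′ UTR of 167 bases, or 29.9 per kb, above 99.97% of the 19113 genes with 100 or more bases of 3′ UTR. Ccl3 had 5 in 409 bases, or 12.2 per kb, above 99.5%, and Ccl4 had 2 in 302 bases, or 6.62 per kb. Ccl5 had 0 in 199 bases, where 61.5% of 20633 genes with a 3′ UTR had at least 1. Any link between these pentamers and the levels was not tested. The median of all genes was 1.31 per kb, and the other 5 chemokines had 1.10 to 4.60 per kb. The densest 30 bases of Ccl12 and Ccl3 are shown with the pentamers in capitals.
Ccl12, chr11:82103325-82103354, + strand: ATTTAaacaaacttgcttaaataatATTTA
Ccl3, chr11:83648085-83648114, - strand: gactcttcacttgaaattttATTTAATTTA

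**Figure D5:**
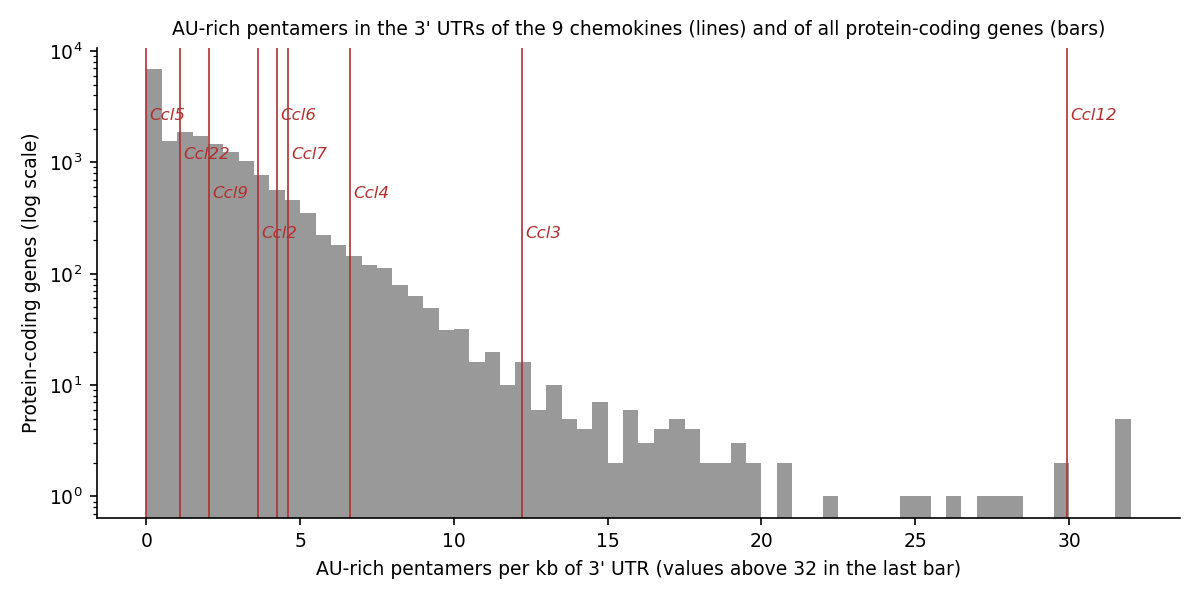
Number of protein-coding genes (log axis) by AU-rich pentamers per kb of 3′ UTR, over the 19113 genes with 100 or more bases of 3′ UTR, with a line for each chemokine. Ccl12 at 29.9 and Ccl3 at 12.2 per kb lie far to the right of the median of 1.31, and Ccl5 lies at 0.

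Promoter windows of RefSeq (GRCm38.p6, the 250 bases before and 50 after a start site) were matched for 5 of the 9 genes, Ccl3, Ccl6, Ccl9, Ccl12 and Ccl22. Each was searched on both strands for letters of NF-kB sites (the bases GGGA, any 4 bases and CC, and 3 narrower forms within it), of AP-1 (TGAGTCA), of CRE (TGACGTCA), of ISRE (GAAA, any 2 bases, GAAA), of C/EBP (TTGCNNAA and, within it, TTGCGCAA), of PU.1 (GAGGAAG) and of the TATA box (TATAAA). The TATA letters were in 2 of the 5 windows, Ccl12 and Ccl9, and in 13.6% of all 32851 windows. They started 31 bases before the start site in Ccl12 and 92 bases before it in Ccl9. The widest NF-kB form was in 1 of 5, that of Ccl22, and in 20.7% of all windows. The RefSeq start site lies 94 bases downstream of the GENCODE one for Ccl22 and 23 bases upstream of it for Ccl3. For Ccl6, Ccl9 and Ccl12 the start sites are the same. The other letters were in 0 of the 5 windows, and in 0.0883% to 13.6% of all windows. The Ccl12 and Ccl9 windows are printed with the TATA letters, on either strand, in capitals.
Ccl12, chr11:82101595-82101894, + strand: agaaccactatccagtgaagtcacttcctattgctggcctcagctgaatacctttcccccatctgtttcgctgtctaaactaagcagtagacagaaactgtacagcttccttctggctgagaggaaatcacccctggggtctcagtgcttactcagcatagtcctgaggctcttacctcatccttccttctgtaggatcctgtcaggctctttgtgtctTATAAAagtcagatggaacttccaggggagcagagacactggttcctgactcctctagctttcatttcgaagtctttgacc
Ccl9, chr11:83578587-83578886, - strand: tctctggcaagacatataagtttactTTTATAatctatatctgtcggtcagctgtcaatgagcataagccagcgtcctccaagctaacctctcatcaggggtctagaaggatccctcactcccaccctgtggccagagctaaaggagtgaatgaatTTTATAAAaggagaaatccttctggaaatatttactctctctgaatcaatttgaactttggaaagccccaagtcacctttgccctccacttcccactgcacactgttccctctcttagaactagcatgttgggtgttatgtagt

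Of the 15 other CC ligand genes of the mouse, 2 reached 1 TPM in each library. These were Ccl8, at 18.2 and 9.23 TPM in replicates 1 and 2, and Ccl25, known from thymus and gut, at 7.75 and 14.3 TPM. Ccl27a, a skin chemokine, came next at 0.32 and 0.77 TPM. Of the 19 annotated records of these genes, 13 were listed at 0 in both libraries, which allows up to 0.126 CPM (counts scaled to a fixed library total) in replicate 1 and 0.145 CPM in replicate 2 at 3 counts. Each of the 9 chemokines except Ccl22 stood above Ccl8 by mean level, although Ccl6 (14.4 TPM) was below Ccl8 (18.2 TPM) in replicate 1.

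Of 15 genes listed as CC chemokine receptors, 5 reached 1 TPM in each library and 4 were at 0 in both. Ccrl2, a receptor known to present chemerin rather than to signal, led at 75.6 and 101.8 TPM. Ccr1, a receptor of Ccl3, Ccl5, Ccl6, Ccl7 and Ccl9, was at 3.99 and 9.54 TPM. Ccr2 and Ccr4 are given because they bind members of the family described above, and were picked with their values known. Ccr2, the receptor of Ccl2, Ccl7 and Ccl12, was at 3.08 and 5 TPM, and Ccr4, the receptor of Ccl22, at 0.02 and 0.06 TPM. Of the proteases known to trim CC chemokines, Mmp12 was at 3.48 and 5.12 TPM and Dpp4 at 0.24 and 0.31 TPM.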

How the data were processed

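Per the file headers, the deposited values are on mm10 with GENCODE M21. The authors' gene and transcript tables derived from alignments hold expected counts, TPM, FPKM and the percent of a gene's TPM in each transcript; their other transcript table, from the read files, holds estimated counts and TPM. No source used here names the tools, their versions or the strand setting. The deposited bounds of TPM do not always hold the deposited TPM and were not used as errors.

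Expected counts were rounded, and rows that are no gene (1.10% and 0.267% of all counts) were left out. Ratios used TMM factors of edgeR 4.0.16, a prior count of 0.5 and exact Clopper-Pearson intervals. A chi-square of 98.1 per gene over 16677 genes showed that the counts are not 1 library listed again. With 1 group there was no comparison and no p-value. All 9 genes were named, as were the 3 highest of the other ligands and of the receptors (1 of these is not reported here) and the neighbours. Genes, lists and motifs were chosen with earlier results of these data known. Alternatives were the read-based table, other scalings (DESeq2 1.42.0), filters and pseudocounts. Coding sequences were compared in place of proteins.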

Additional observations from a re-analysis of the deposited data

How the results depend on the processing

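The summed level of the 9 genes, 1852 ± 74.0 TPM (SD, n = 2), was 1281 TPM in the read-based table and 9269 on TPM rescaled to nuclear protein-coding genes, a change of denominator. The median log2(TPM + 0.1) of 7.22 became 6.83 in the read-based table, 7.53 without Ccl22 (the 1 gene under 1 TPM in a library) and 7.77 with FPKM. The count of genes beyond 2-fold, 0 of 8, became 1 of 9 with no filter or with a mean count of 10 or more (Ccl22), and 2 of 9 in the read-based table (Ccl12 and Ccl22). At a mean count of 10 or more, 8.74% of all 15051 genes were beyond 2-fold. The order by mean held for 5 of 9 ranks in the read-based table. The cause of these differences between the tables was not tested. Compared as TPM, the ratios of Ccl5 (0.14) and Ccl7 (0.046) turned positive, which was an alternative chosen after seeing the data. On the rescaled TPM both genes were lower in replicate 2, Ccl5 at 3849 and 3545 and Ccl7 at 1285 and 1112 in replicates 1 and 2. Leaving out replicate 1 or replicate 2 gave summed levels of 1800 to 1904 TPM and medians of 7.05 to 7.39, and kept 7 of 9 ranks each. The read-based table also held 5 genes at 100 TPM or more, with Ccl9 in place of Ccl2. On the rescaled TPM 7 genes were, with Ccl9 and Ccl12 added, but rescaling raises the values of all nuclear protein-coding genes. The share of all protein-coding genes at 100 or more was not computed for the read-based or rescaled values. Of the 45 alternative values of single ratios, 43 kept their sign, but many of these only rescale the same counts. In the read-based table the ratios of Ccl2, Ccl3, Ccl5, Ccl7, Ccl9 and Ccl12 fell outside their counting intervals, and that of Ccl3 went from 0.39 to 0.06. No paired analysis was possible because there is 1 group only. Depth limits Ccl22 most, at 43 and 130 counts.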
